A study of Homo sapiens with 4 samples.

Results

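The HOX cluster genes were described here on 4 expression arrays, 1 for each group of the study. Members were all probes whose platform symbol is HOX, a cluster letter from A to D and a number, which gave 36 probes for 29 genes among 47322 probes and 20043 named genes. RefSeq lists 39 such genes, of which 10, all of the HOXA cluster, had no probe named in the annotation used here, so HOXA was represented by HOXA2 alone. All 10 HOXB, 9 HOXC and 9 HOXD genes were measured. RefSeq places HOXA on chromosome 7, HOXB on chromosome 17, HOXC on chromosome 12 and HOXD on chromosome 2.

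MDA-MB-231 cells are breast cancer cells of mesenchymal character, and MCF10A an immortalised breast epithelial line that forms no tumours. By their labels, 1 array held RNA of MDA-MB-231 cells and 3 held RNA of MCF10A cells. Of these, the untreated array came from cells left without treatment, the exosome array from cells that received exosomes of MDA-MB-231, and the Dicer antibody array from cells that received such exosomes carrying an antibody to Dicer, the enzyme that cuts microRNA precursors. All cells were grown in serum depleted of exosomes, and no dose or duration of the exosome treatment was given in the sources used here. Each group was 1 array of 1 RNA sample, so no difference below has a replicate check or a test. Signals are printed in the units of the deposited table, background included, and a probe was called detected where its deposited detection p was below 0.01.

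HOX proteins are homeodomain transcription factors that give cells their position along the head-to-tail axis of the embryo. The genes lie in 4 clusters and are numbered in 13 paralog groups, and low-numbered genes act towards the head while high-numbered genes act towards the tail. Adult cells keep part of this pattern, and cultured fibroblasts from different body sites keep different HOX patterns. HOX proteins bind DNA with TALE partners of the PBX, MEIS and PKNOX families, Polycomb complexes hold the clusters silent, and Trithorax proteins keep them active.

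The clusters also carry microRNA genes of the miR-10 and miR-196 families, small RNAs whose targets include HOX messages. The mature sequences are shown because they share their loci with the members, and the study asked about microRNA biogenesis. They are RefSeq entries on GRCh38.p14, written 5′ to 3′ with the seed, bases 2 to 8, in capitals.
miR-10a-5p: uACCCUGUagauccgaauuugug
miR-196a-5p: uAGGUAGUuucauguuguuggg
miR-196b-5p: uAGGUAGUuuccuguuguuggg
The sequence of miR-10a-5p lies at chr17:48579904-48579926 on the minus strand, inside the annotated span of HOXB3 and between HOXB4 and HOXB5. MiR-196a-5p comes from a copy at chr17:48632532-48632553 on the minus strand, between HOXB9 and HOXB13, and from a copy at chr12:53991762-53991783 on the plus strand, between HOXC10 and HOXC9. MiR-196b-5p lies at chr7:27169528-27169549 on the minus strand, between HOXA9 and HOXA10. Both miR-196 sequences have the seed AGGUAGU and differ by A12C, counted from the 5′ end with the base of miR-196a first. Probes for the genes MIR10A, MIR10B, MIR196A1, MIR196A2 and MIR196B stayed below detection on all 4 arrays, with signals between 44.1 and 71.9 units.

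The 4 arrays differed in how much they detected. The untreated array detected 56.6% of all named genes and the Dicer antibody array 56.2%, against 7.24% for MDA-MB-231 and 7.21% for the exosome array, so the group and this split cannot be told apart where the 2 kinds of array are compared. The labelled cell type was also not borne out by its markers. The epithelial markers CDH1, KRT5 and KRT14 were not detected on any array. Of 13 epithelial markers, 3 were detected on the untreated and 5 on the Dicer antibody array, and of 10 fibroblast markers, all 10 and 6. The other arrays detected no marker of either list. Every direction below is one between arrays as labelled. In bulk RNA, fewer cells of a type and less RNA per cell cannot be told apart.

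On the untreated array 19 of the 29 HOX genes were detected (65.5%, beside 56.6% of all genes), and they followed the order of the clusters. In HOXB, every gene from HOXB2 to HOXB8 was detected, and HOXB1, HOXB9 and HOXB13 were not. In HOXC, every measured gene from HOXC4 to HOXC10 was detected, HOXC11 and HOXC12 were not, and HOXC13 was. In HOXD, the genes HOXD1, HOXD3, HOXD4 and HOXD8 were detected and the 5 from HOXD9 to HOXD13 were not. Taken by paralog group, 16 of 17 genes of groups 1 to 8 and 3 of 12 of groups 9 to 13 were detected.

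On the Dicer antibody array 12 HOX genes were detected (41.4%, beside 56.2% of all genes), and each of them was also detected on the untreated array. The 7 genes detected on the untreated array alone were HOXB3, HOXB4, HOXB8, HOXC5, HOXD1, HOXD4 and HOXD8. These 7 of 19 compare with 10.6% of all genes detected on the untreated array that were not detected on the Dicer antibody array. The reverse held for none of the 12 HOX genes and for 9.93% of all genes. By paralog group, the count was 9 of 17 in groups 1 to 8 and 3 of 12 in groups 9 to 13. HOXC10 and HOXC13 were among the latter on both arrays. On the MDA-MB-231 array HOXD3 was detected, 1 of 29 genes (3.45%, beside 7.24% of all genes). A probe of HOXC6 that does not represent its gene here was also detected there. The exosome array detected HOXB6, HOXC13 and HOXD3, 3 of 29 (10.3%, beside 7.21%).

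**Figure D1:**
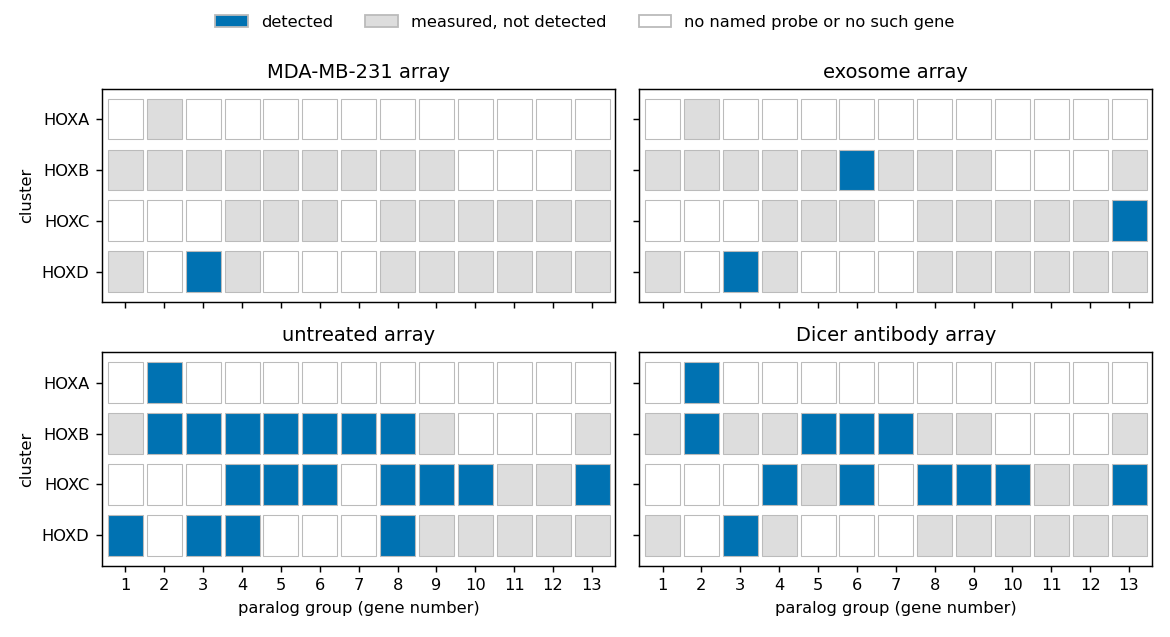
Detection of each HOX gene on each array, with the cluster on the vertical axis and the paralog group on the horizontal axis; blue marks a detected gene, grey a measured gene that was not detected, and white no named probe or no such gene. The untreated array detected 19 genes, most of them in groups 1 to 8, the Dicer antibody array 12, the exosome array 3 and the MDA-MB-231 array 1.

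The 10 genes detected on no array read between 40.3 and 71.6 units on all 4, below the lowest detected signal of the array concerned. They were HOXB1, a gene of the hindbrain; HOXB9, whose mouse counterpart acts with its paralogs in mammary gland growth; HOXB13, a gene of the prostate; HOXC11 and HOXC12; and HOXD9, HOXD10, HOXD11, HOXD12 and HOXD13, genes of the limb and tail end. HOXD10, a miR-10b target that restrains the migration of breast cancer cells, read 53.4 units on the MDA-MB-231 array, 50.7 on the exosome array, 57.8 when untreated and 53.9 on the Dicer antibody array. All 4 values were called not detected, so no change in HOXD10 was detectable on any array. At a detection p below 0.05, HOXD11 would count as detected on the exosome and Dicer antibody arrays and HOXC11 on the untreated array. A gene that was not detected may still be expressed at a level the probe cannot show.

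RefSeq promoters were at hand for 12 of the 29 genes, 7 detected and 5 never detected. The window searched was the 250 bases before the gene's start. The promoters of HOXC4, detected on the untreated and Dicer antibody arrays, of HOXD8, the highest-numbered HOXD gene detected, and of HOXD10, never detected, are shown to set detected genes beside one that was not. Capitals mark the motif CCAAT on either strand, and all windows are on the plus strand of GRCh38.p14.
HOXC4: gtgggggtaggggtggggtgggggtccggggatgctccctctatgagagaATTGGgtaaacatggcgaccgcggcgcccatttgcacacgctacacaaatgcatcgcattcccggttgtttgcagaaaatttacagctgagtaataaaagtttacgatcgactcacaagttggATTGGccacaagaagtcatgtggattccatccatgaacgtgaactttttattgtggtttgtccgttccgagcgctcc
HOXD8: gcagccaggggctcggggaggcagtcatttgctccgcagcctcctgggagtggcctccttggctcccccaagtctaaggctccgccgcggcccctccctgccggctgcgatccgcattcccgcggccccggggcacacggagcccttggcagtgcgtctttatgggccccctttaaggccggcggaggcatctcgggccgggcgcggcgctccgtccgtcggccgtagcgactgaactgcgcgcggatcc
HOXD10: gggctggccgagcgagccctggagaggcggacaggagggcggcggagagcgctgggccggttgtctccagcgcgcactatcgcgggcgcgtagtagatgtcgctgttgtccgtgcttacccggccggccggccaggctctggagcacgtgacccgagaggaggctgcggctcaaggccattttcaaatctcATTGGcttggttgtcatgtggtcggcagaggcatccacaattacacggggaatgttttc
These windows lie at chr12:54016638-54016887, chr2:176129455-176129704 and chr2:176116528-176116777. The CCAAT motif was present in 10 of the 12 HOX windows and in 32.0% of 35116 promoters of the same length. It stood 2 times before HOXC4, 1 time before HOXD10 and not before HOXD8, so its presence did not follow detection in these 3. HOXC4 and HOXC5 share 1 window and are not independent. The site TGATNNAT, bound by PBX and HOX proteins together, was present before HOXA2, HOXB1 and HOXD11, 3 of 12, beside 6.47% of all promoters. TGACAG, a MEIS site, was present before HOXA2 alone and in 13.03% of all promoters, and TATAAA before HOXD13 alone and in 10.7%. Both strands were searched for each motif, and no match overlapped one of another motif. The windows held 14 CG dinucleotides before HOXC4, 28 before HOXD8 and 23 before HOXD10, against a median of 18.5 for the 12 genes and 11 for all promoters. A match describes letters in the window and is no sign of binding.

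Setting the Dicer antibody array against the untreated one joins the 2 arrays with many detected probes. It asks, by its labels, how MCF10A cells differ after exosomes that carry an antibody to Dicer. HOX signals were mostly lower on the Dicer antibody array, above all in HOXB and in HOXC6 and HOXC8. Of the 29 measured genes, 10 were at least 2-fold lower after normalization and 1 was at least 2-fold higher. Another 8 were not called at 2-fold, and 10 were detected on neither array. Of the 8, HOXA2, HOXC4, HOXC10 and HOXD3 were detected on both arrays and lay within 2-fold, and the others were bounds. Over all genes compared, 17.3% were lower and 15.2% higher. The median log2 difference of the 19 HOX genes compared was -1.91, beside -0.02 for all genes. That median is open to selection, since 7 of the 19 entered through the untreated array alone. Over all 29 genes with no detection filter it was -0.52, beside -0.0023 for all genes, and over the 12 genes detected on both arrays -1.98, beside -0.01. All 7 compared HOXB genes were at least 2-fold lower (median -2.56), as were 3 of 7 HOXC genes (median -0.84), against none of 4 HOXD genes (median -0.51), although HOXD8 passed 2-fold under 6 other settings and HOXC5 under 5. In these clusters HOXB3, HOXB4, HOXB8, HOXC5, HOXD1, HOXD4 and HOXD8 were bounds, which could not turn higher. Their size is limited by the lowest detected value of the Dicer antibody array, 4.82 on the log2 scale. HOXC5, HOXD1, HOXD4 and HOXD8 stood at 5.65, 5.30, 5.34 and 5.79 when untreated, less than 1 above it. Bounds for these 4 could therefore not reach 2-fold lower after quantile normalization over the 4 arrays. Whether the clusters differ was not tested. The size of the median rested on the processing. It was -0.94 with quantile normalization but no background correction, and -1.75 with the deposited signals, which are not background-corrected either. It was also -0.94, with 8 genes lower, when each gene was represented by the probe of highest mean normalized value. The probe of highest mean deposited signal was used otherwise. This choice between scales was made after seeing the data, and the alternative cost the calls of HOXB6 and HOXC6.

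**Figure D2:**
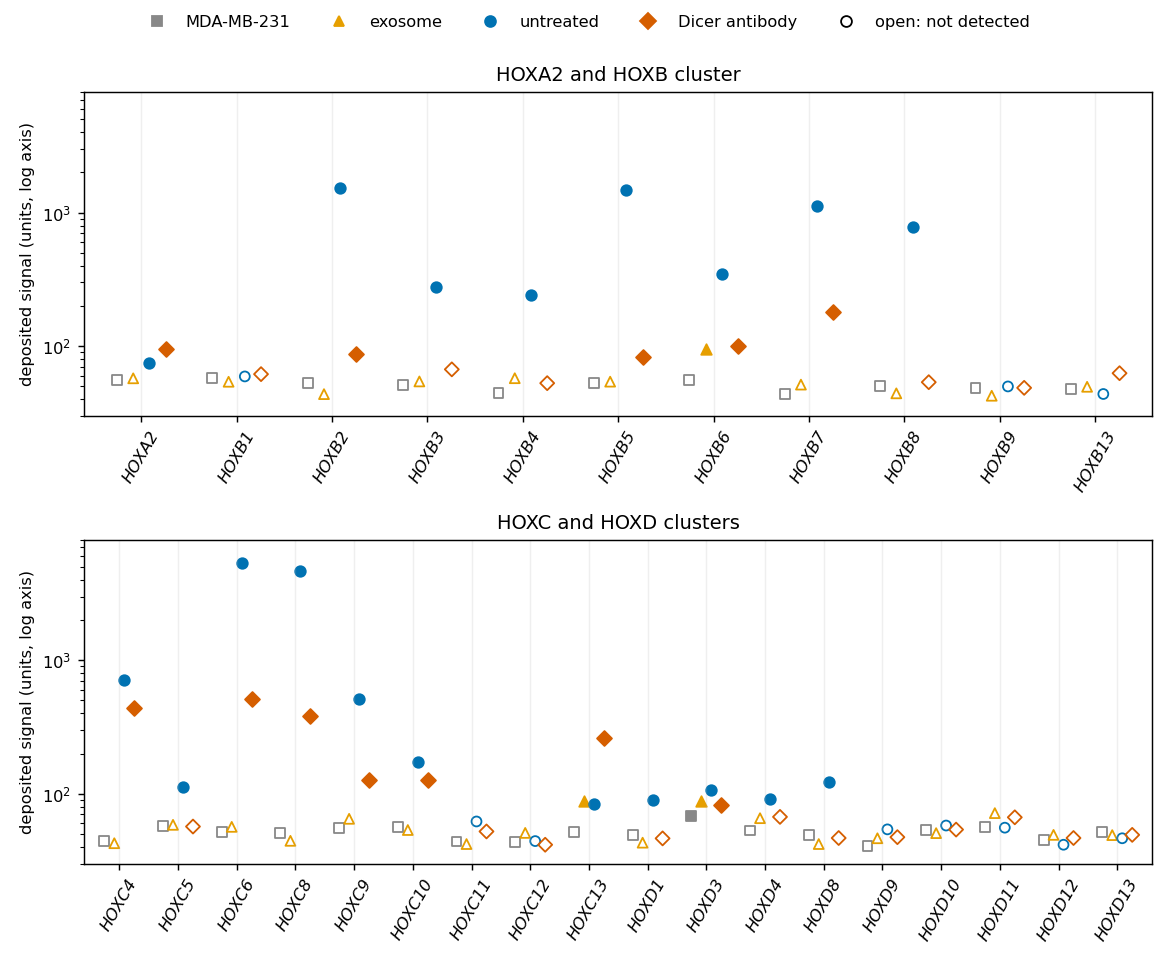
Deposited signal in units on a log axis for each HOX gene, ordered by cluster and number, on the 4 arrays; filled symbols are detected and open symbols are not. The untreated array stands highest from HOXB2 to HOXB8 and from HOXC4 to HOXC10, and the Dicer antibody array stands highest at HOXC13.

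In the HOXB cluster, HOXB2, which patterns the hindbrain, read 53.1 units on the MDA-MB-231 array, 43.7 on the exosome array, 1524 when untreated and 87.0 on the Dicer antibody array. Its signal on the untreated array stood far above the other 3, and the Dicer antibody value was 19.5-fold lower, with detection on these 2 arrays only. Its smallest fold over 6 scalings of the arrays was 4.65. HOXB5, a gene of vascular and enteric nerve development, read 52.7, 54.2, 1484 and 83.4 units in the same order of arrays and was 20.04-fold lower, with a smallest fold of 4.69. HOXB7, a gene linked to invasive growth when overexpressed in breast cancer, read 43.9, 51.5, 1120 and 181 units. It kept a clear signal on the Dicer antibody array, 5.91-fold below the untreated array and 2.56-fold at the smallest of the scalings. HOXB8, a miR-196 target that keeps myeloid progenitors from maturing, read 49.9, 44.3, 782 and 53.7 units. It was detected on the untreated array alone, so its difference is a bound of at least 3.58-fold lower, the smallest value over 6 scalings.

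The other HOXB genes showed smaller differences or bounds than HOXB2 and HOXB5. HOXB3, a hindbrain gene also active in blood vessels, read 51.4, 54.4, 278 and 67.0 units and was at least 2.06-fold lower on the Dicer antibody array. HOXB4, which expands blood stem cells, read 44.8, 57.5, 242 and 52.8 units, with a bound of 3.95-fold after normalization and of at least 1.92-fold lower over the 6 scalings. HOXB6, expressed in blood-forming and skin cells, read 55.8, 95.4, 349 and 99.8 units. It was detected on all arrays but MDA-MB-231. Its fold, Dicer antibody against untreated, was 3.75 after normalization and 1.92 at the smallest of the 6 scalings. Folds without a bound were taken after background correction and quantile normalization, so they are often larger than the plain signal ratio.

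In the HOXC cluster, HOXC6 read 51.8 units on the MDA-MB-231 array, 56.5 on the exosome array, 5336 when untreated and 512 on the Dicer antibody array. HOXC8, a miR-196 target that patterns the thoracic region, read 50.8, 44.4, 4691 and 382 units. Both were detected by the probes that represent them on the last 2 arrays only and, although clearly above background on the Dicer antibody array, stood there 9.16-fold and 10.9-fold below the untreated array. HOXC9, which sets thoracic motor neuron identity in mice, read 55.7, 64.9, 509 and 127 units and was 4.14-fold lower. Their smallest folds over the 6 scalings were 5.02 for HOXC6, 4.95 for HOXC8 and 2.05 for HOXC9.

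None of the other HOXC genes compared was called 2-fold lower. HOXC4, a gene that controls antibody diversification in B cells, read 44.4, 42.6, 709 and 437 units and was 1.43-fold lower, within the 2-fold limit. HOXC10, which sets lumbar motor neuron identity in mice, read 56.3, 53.5, 173 and 127 units and was 1.39-fold lower. HOXC5 read 57.5, 58.5, 112 and 56.8 units, was detected on the untreated array alone and was at least 1.30-fold lower. HOXC13, a regulator of hair keratins and of hair and nail growth, was the 1 gene that stood more than 2-fold higher on the Dicer antibody array. It read 51.7, 88.1, 84.2 and 262 units, detected on all arrays but MDA-MB-231, and was 3.61-fold higher after normalization and 1.86-fold at the smallest of the 6 scalings.

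None of the HOXD genes reached a 2-fold difference after quantile normalization over the 4 arrays. HOXD1, HOXD4 and HOXD8 were bounds that could not reach it. Their untreated values lay less than 2-fold above the lowest detected value of the Dicer antibody array. HOXD8 read 49.1, 42.0, 123 and 46.6 units and was at least 1.36-fold lower on the Dicer antibody array. HOXD1, which shapes pain-sensing neurons in mice, read 49.4, 43.0, 89.8 and 46.3 units, and HOXD4, a gene of the hindbrain and neck, read 53.1, 65.6, 92.0 and 67.1. Both were detected on the untreated array alone, with bounds of at least 1.16-fold and 1.18-fold lower. HOXD3, a gene linked to integrin expression and vessel growth, read 68.7, 88.9, 106 and 82.5 units and was the 1 HOX gene detected on all 4 arrays by the probe that represents it. On the MDA-MB-231 array its detection p was 0.00909, just below the limit of 0.01. It was 1.40-fold lower on the Dicer antibody array than on the untreated array. HOXA2, which patterns the second pharyngeal arch, read 55.6, 57.4, 75.3 and 96.0 units and was 1.27-fold higher. HOXA2 and HOXC13 were thus the 2 compared genes with a higher value on the Dicer antibody array, against 17 with a lower one. Of those 17, 7 were bounds, which could not come out higher.

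**Figure D3:**
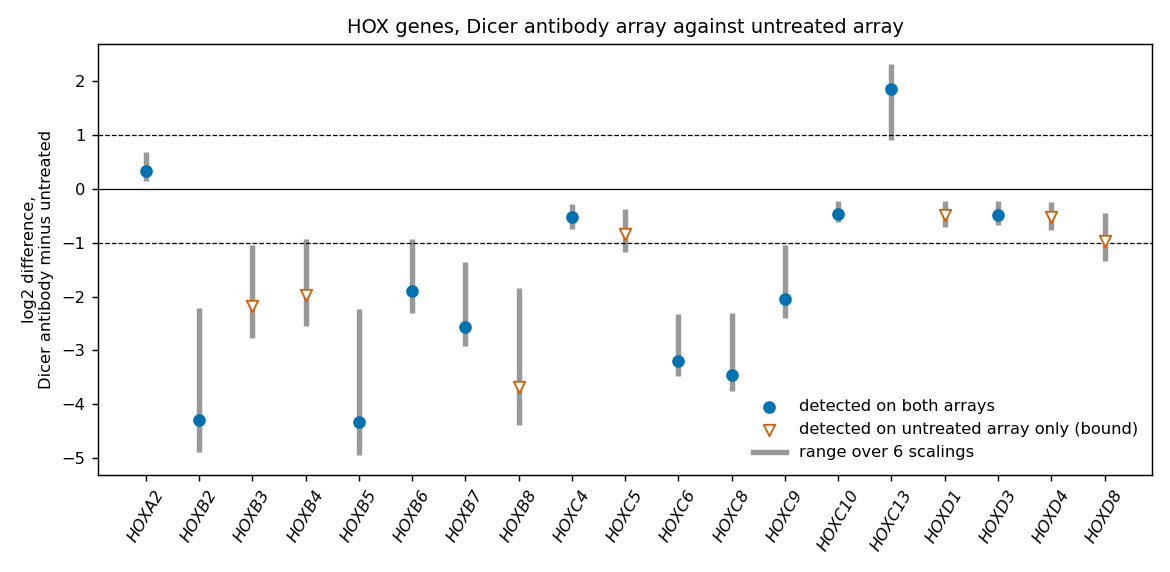
Log2 difference, Dicer antibody minus untreated, for the 19 HOX genes detected on at least 1 of these arrays; circles are genes detected on both, triangles are bounds for genes detected on the untreated array alone, grey bars span 6 scalings of the arrays and dashed lines mark 2-fold. HOXB2 and HOXB5 stand lowest at -4.28 and -4.32, and HOXC13 stands highest at 1.85.

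The direction of each of the 12 genes detected on both arrays was the same under all 6 scalings. The other 7 were bounds, set to 0 where the sign would turn, so no scaling could reverse them. At least 2-fold under every scaling were 8 genes, all lower: HOXB2, HOXB3, HOXB5, HOXB7, HOXB8, HOXC6, HOXC8 and HOXC9. Of these, HOXB3 and HOXB8 were bounds. The same rule called 7.05% of all compared genes lower and 5.55% higher. HOXB4, HOXB6 and HOXC13 fell short of 2-fold under 1 of the scalings, quantile normalization without background correction.

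Where a gene had more than 1 probe, the probes agreed in direction but not always in size. HOXC6 had 4 probes. A second one read 59.8, 63.7, 574 and 75.1 units and was 8.89-fold lower on the Dicer antibody array, beside 9.16-fold for the probe that represents the gene. Another read 68.6, 79.5, 133 and 78.8 units and was 1.91-fold lower, and the last was not detected on any array, at 43.2 to 51.5 units. The second HOXB3 probe read 180 units when untreated and 57.6 on the Dicer antibody array, with a log2 bound of -1.55 beside -2.18 for the first. The second HOXB6 probe, at 75.5 and 68.6 units, was detected on the untreated array but not on the Dicer antibody array. It gave a log2 bound of -0.20, beside a difference of -1.91 for the first. The second HOXC4 probe was not detected on any array. A second HOXA2 probe, at 55.3 and 74.8 units, was detected on the Dicer antibody array alone. Over all 36 HOX probes, 24 could be compared, 12 were at least 2-fold lower and 1 higher. HOXC4, HOXC5 and HOXC6 overlap in RefSeq and HOXB4 lies within the annotated span of HOXB3, so which transcript such a probe reads is uncertain.

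Fibroblast markers moved with the HOX genes between these arrays. Their summed signal over 10 genes was 74199 units when untreated and 4338 on the Dicer antibody array, against 530 for MDA-MB-231 and 536 on the exosome array, and all 10 were at least 2-fold lower on the Dicer antibody array, with POSTN at 1.90-fold under the smallest of the 6 scalings. Epithelial markers had a summed signal over 13 genes of 860 units when untreated and 3565 on the Dicer antibody array, and 4 of 6 compared genes, KRT7, KRT8, KRT18 and CLDN1, were higher. EPCAM lay within 2-fold, KRT19 went down with the fibroblast markers from 124 to 58.5 units, and the other 7, CDH1, KRT5 and KRT14 among them, were detected on neither array. Of 5 endothelial markers, 2 were detected on the untreated and 1 on the Dicer antibody array, and of 5 leukocyte markers, 2 on each. PECAM1, an endothelial marker, was 4.21-fold higher on the Dicer antibody array, CD14, a monocyte marker, was 2.43-fold higher (1.60-fold at the smallest of the scalings), and CD68, a macrophage marker, was 5.27-fold lower. CDH5, PTPRC and CD3E were not detected on any array. At 2-fold, 17.3% of all compared genes were lower and 15.2% higher on the Dicer antibody array. The part of these cell type markers in the HOX differences was not tested.

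Genes that work with HOX proteins were compared on the same arrays. Of 9 measured TALE partners, 3 of the 8 compared were at least 2-fold lower on the Dicer antibody array and none higher, with a median log2 difference of -0.80, beside -0.02 for all genes. Among all compared genes, 17.3% were lower and 15.2% higher. PBX3, which binds DNA together with HOX proteins, read 57.1 units on the MDA-MB-231 array, 71.0 on the exosome array, 2836 when untreated and 269 on the Dicer antibody array. It stood 9.56-fold lower on the Dicer antibody array, and 3.63-fold at the smallest of the 6 scalings. MEIS1, a HOX partner in blood stem cells, read 126, 202, 441 and 183 units, was detected on all 4 arrays and was 2.29-fold lower, with a smallest fold of 1.53. MEIS3 was 3.76-fold lower, at 82.4 units against 275, with a smallest fold of 1.89. Of the 3, PBX3 alone was 2-fold lower under all 6 scalings. PBX2, PBX4, MEIS2 and PKNOX1 lay within 2-fold. PBXIP1, detected on the untreated array alone, gave a bound below 2-fold. PKNOX2 was not detected on any array.

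Polycomb genes, whose products keep HOX clusters silent, were higher or were not called at 2-fold. Of 16 measured and compared, 5 were at least 2-fold higher on the Dicer antibody array and none lower, with a median of 0.45. The shares over all compared genes were 15.2% higher and 17.3% lower, with a median of -0.02. EZH2, the enzyme that methylates histone H3 in these complexes, read 269, 1278, 117 and 765 units in the order MDA-MB-231, exosome, untreated and Dicer antibody, and was 7.74-fold higher on the Dicer antibody than on the untreated array, with a smallest fold of 2.87. CBX2, a subunit that binds the methyl mark, read 57.0 units when untreated and 679 on the Dicer antibody array and was at least 3.56-fold higher. SUZ12, the partner of EZH2, was 2.50-fold higher, JARID2 2.32-fold and the histone binder RBBP7 2.23-fold, with smallest folds over the scalings of 1.98, 1.56 and 1.57. BMI1, RING1, EED and the remaining genes detected on both arrays lay within 2-fold. EZH1, detected on the Dicer antibody array alone, gave a bound below 2-fold.

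Of 11 Trithorax genes and activators, 10 were compared and none was called at 2-fold, with a median of -0.16. KDM6B, detected on the Dicer antibody array alone, gave a bound. KMT2A, the methyltransferase that maintains HOX expression, read 374 units when untreated and 290 on the Dicer antibody array. Retinoic acid switches on the low-numbered HOX genes in embryos. Of its 9 listed genes 6 were compared, with 1 higher, 1 lower and a median of -0.27. All compared genes gave 15.2% higher and 17.3% lower, with a median of -0.02. CRABP2, a carrier of retinoic acid, read 2453 units when untreated and 314 on the Dicer antibody array and was 6.93-fold lower, with a smallest fold of 2.97. CYP26B1, which degrades retinoic acid, read 109 and 804 units and was 8.92-fold higher, with a smallest fold of 3.08. Among the long non-coding RNAs of the clusters, HOTAIR read 73.7 and 78.0 units and HOTTIP 74.8 and 73.2, both detected on these 2 arrays and within 2-fold. HOXA11-AS was detected on the untreated array alone, at 83.5 against 48.9 units.

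**Figure D4:**
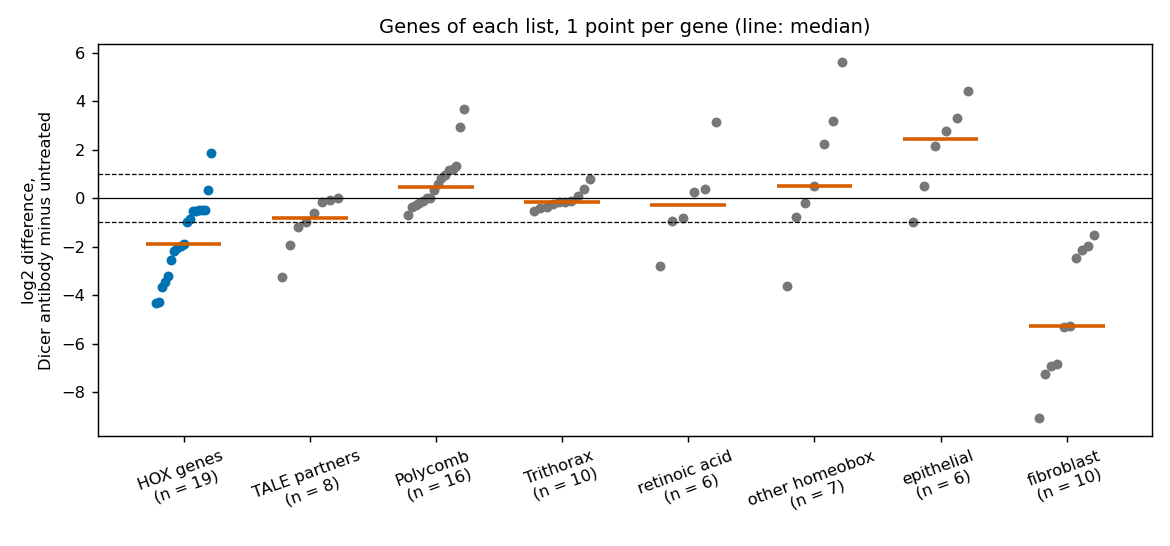
Log2 difference, Dicer antibody minus untreated, for each compared gene of the HOX clusters and of 7 other lists; each point is a gene, orange lines are medians and dashed lines mark 2-fold. HOX genes have a median of -1.91, fibroblast markers of -5.29, TALE partners of -0.80 and Polycomb genes of 0.45.

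The other comparisons bring in the arrays with few detected probes. Cancer cells were set against untreated recipient cells, and recipient cells with exosomes against those without. Both comparisons share the untreated array with the one above. After quantile normalization alone, 2 of 19 HOX genes were lower and 1 was higher on the MDA-MB-231 array (5.61% and 11% of all compared genes), and 2 were lower and 3 higher on the exosome array (5.44% and 10.8%). The higher calls, HOXD3 in both and HOXB6 and HOXC13 on the exosome array, were present under each of the 3 quantile settings and absent under median scaling, no normalization and the deposited signals. On the deposited scale HOXD3 read 68.7 and 88.9 units there against 106. By the probes that represent their genes, HOXC6 and HOXC8 were the 2 HOX genes at least 2-fold lower under all 6 scalings in each of the 2 comparisons. The bounds for HOXC6, at 51.8 and 56.5 against 5336 units, were at least 2.75-fold lower for MDA-MB-231 and at least 2.72-fold lower for the exosome array. Those for HOXC8, at 50.8 and 44.4 against 4691 units, were at least 2.30-fold and at least 2.28-fold lower. Another HOXC6 probe read 68.6 units on the MDA-MB-231 array, where it was detected, 79.5 on the exosome array and 133 when untreated. In the authors' normalized values that probe stood higher on the MDA-MB-231 than on the untreated array, at 614 against 82.2. No HOX gene was higher under all 6 scalings. Over all compared genes, 4.25% were lower and 0.285% higher by this rule on the MDA-MB-231 array, and 4.16% and 1.21% on the exosome array. The other members detected on 1 of the arrays gave no 2-fold bound here. After quantile normalization the lowest detected value was 9.64 on the MDA-MB-231 and 9.66 on the exosome array against 4.83 on the untreated array, on the log2 scale. The next brightest HOX gene on the untreated array, HOXB2, stood at 9.45. A lower call under all 6 scalings was thus possible for HOXC6 and HOXC8 alone.

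Against the Dicer antibody array, no HOX gene of the 12 compared was called at 2-fold under all 6 scalings. This held for MDA-MB-231 and for the exosome array, and both comparisons share the Dicer antibody array with the first. A lower call could not arise. HOXC6, the brightest of the 12 on the Dicer antibody array, stood at 8.08 on the log2 scale after quantile normalization. The lowest detected value was 9.64 on the MDA-MB-231 and 9.66 on the exosome array. After quantile normalization alone, 1 was higher and none lower on the MDA-MB-231 array (11.1% and 5.2% of all compared genes), and 3 were higher and none lower on the exosome array (10.9% and 5.01%). Under all 6 scalings, 3.86% of all compared genes were lower and 0.228% higher on the MDA-MB-231 array, and 3.78% and 1.17% on the exosome array. The exosome array against the MDA-MB-231 array compared 3 HOX genes. HOXB6 read 95.4 against 55.8 units, HOXC13 88.1 against 51.7 and HOXD3 88.9 against 68.7. HOXB6 and HOXC13 were detected on the exosome array alone, so their differences were bounds that could fall to 0 but not reverse. None of the 3 was called at 2-fold after normalization, where 4.62% of all compared genes were higher and 3.21% lower. None kept a difference in 1 direction under all 6 scalings. By the 2-fold rule under all 6, 2.31% of all compared genes were higher and 0.846% lower.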

How the data were processed

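Biotin-labelled RNA copies from 4 samples were read on 1-colour Illumina bead arrays, 1 array a group. Per the file headers, the authors deposited a non-normalized table that pairs each probe's intensity (linear, background included) with a detection p-value. The authors' value table, used as an alternative, holds normalized intensity for 3 arrays and, for the exosome array, detection p-values instead of signals, within 0.0026. Per the submitters' processing notes limma was used, with no steps given in the sources used here.

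Platform annotation gave 1 symbol for 30110 probes, several for 8 and none for 17204, and symbols were updated by gene identifier for 30071. Each gene took the values of its brightest probe, by mean log2 deposited signal. The plan named the highest mean value without its scale; the deposited scale was chosen after seeing the data, because the mean of normalized values favours probes that quantile normalization raises on the arrays with few detected probes. Intensities were background-corrected from the detection p with an offset of 16, quantile-normalized over the 4 arrays and logged (limma 3.58.1 in R 4.3.3). Genes entered a comparison when either array detected them. Where only 1 array did, the other's value was raised to that array's lowest detected value if it lay below it, which gives a bound, set to 0 where the sign would turn. Folds written "at least" are the smallest over 6 scalings: quantile over 4 or over 2 arrays, median scaling, no normalization, quantile without background correction, and the deposited signals. The steps were tested on simulated data. Python 3.11.15, numpy 2.4.6, pandas 2.3.3 and matplotlib 3.10.9 were used.

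With 1 array a group, genes were counted at 2-fold (1 on the log2 scale) with no p-value; precision is limited by the array number. All members are named. Members, lists and alternatives were chosen with earlier results of these data known.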

Additional observations from a re-analysis of the deposited data

How the results depend on the processing

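The count of 10 HOX genes lower on the Dicer antibody array than on the untreated array stayed between 7 and 13 under 12 alternatives, and no called gene changed sign. A gene given as a bound could not change sign wherever it stayed a bound. Of the 11 called genes, 7 kept their call under every alternative that gave them a value (HOXB2, HOXB3, HOXB5, HOXB7, HOXB8, HOXC8 and HOXC9). The higher count fell from 1 to 0 in the authors' value table and with quantile normalization without background correction. HOXC13 stood there at 0.98 and 0.90 on the log2 scale. HOXB4 fell short of 2-fold in the same settings, at -0.96 and -0.94. HOXB6 fell short with quantile normalization without background correction, at -0.94. An alternative added after seeing the data represented each gene by its probe of highest mean normalized value. There HOXB6 gave a bound of -0.20 and HOXC6 stood at -0.94, each through a dimmer probe. Other genes passed 2-fold lower under some alternatives: HOXD8 under 6 (-1.50 to -1.15), HOXC5 under 5 (-1.20 to -1.03) and HOXD1 with no detection filter (-1.01). The median log2 difference of -1.91 became -0.94 without background correction, -1.22 with an offset of 50, -0.96 in the authors' value table, -1.17 at a detection p below 0.05 (21 genes), -0.52 with no detection filter (29 genes) and -0.94 with the probe of highest mean normalized value. The cause of these shifts was not tested.

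The 1 HOX gene detected on the MDA-MB-231 array became 2 when any probe of a gene counted, when probes were counted, and with the probe of highest mean normalized value. The other 3 arrays' counts stayed within 1.5 times.

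Between arrays with few and with many detected probes the count rested on the scaling. Beside 2 lower and 0 higher under all 6 scalings, the MDA-MB-231 array against the untreated array gave 10, 15 and 12 lower under median scaling, no normalization and the deposited signals, and 1 higher under each quantile setting. The exosome array gave 11, 13 and 12 lower and 3 higher in the same settings. Against the Dicer antibody array the rule of all 6 scalings gave 0 in both directions, and it could not give a lower call. Beside this, the MDA-MB-231 array gave 4, 8 and 5 lower, and 1 higher under each quantile setting and median scaling. The exosome array gave 5, 7 and 5 lower and 3 higher. Before normalization, the median difference of genes detected on both arrays was -1.94 for the MDA-MB-231 and -1.02 for the exosome array against the untreated array, and after quantile normalization 3.19 and 3.11.

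No paired analysis was possible because each group held 1 array. Dim members are limited by background: the lowest detected signal was 67.8 units on the untreated and 72.1 on the Dicer antibody array.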

Other observations

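Homeobox genes outside the HOX clusters were set beside them. Of 25 relatives, the untreated array detected 5 and the Dicer antibody array 7, against 19 and 12 of the 29 HOX genes. These arrays detected 56.6% and 56.2% of all genes. Of the 7 relatives compared, 3 were at least 2-fold higher on the Dicer antibody array and 1 lower, with a median log2 difference of 0.50. For all compared genes, 15.2% were higher and 17.3% lower, with a median of -0.02. DLX1, a factor of forebrain and jaw development, read 65.5 units on the MDA-MB-231 array, 80.0 on the exosome array, 76.9 without treatment and 560 on the Dicer antibody array, and was 9.05-fold higher on the last than on the untreated array. MEOX1, a factor of somite development, went from 49.6 units (untreated) to 265 (Dicer antibody) and was at least 2.10-fold higher. Members of the Iroquois family went in opposite directions between these arrays. IRX2 read 690 units without treatment and 18811 on the Dicer antibody array, 49.7-fold higher, whereas IRX5 read 1109 and 97.1 units and was 12.4-fold lower. The ParaHox genes CDX1, CDX2, CDX4, GSX1, GSX2 and PDX1 and the HOX neighbours EVX1 and EVX2 were not detected on any array.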
